A study of Mus musculus with 8 samples.

Results

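The mRNA of 9 costimulatory ligand genes, the B7 family and 2 TNF family ligands, was examined, chosen by symbol among the 55450 genes of the deposited table. These were *Cd80*, *Cd86*, *Cd274* (PD-L1), *Pdcd1lg2* (PD-L2), *Icosl*, *Cd276* (B7-H3), *Vtcn1* (B7-H4), *Tnfsf4* (OX40L) and *Tnfsf9* (4-1BBL). RNA had been sequenced from CD45-EpCAM+ thymic epithelial cells (TECs) of embryonic day 17 (E17) mouse embryos, sorted by reporter, with 3 libraries each of CCL21+RANK- and CCL21-RANK+ cells and 2 of CCL21-RANK- cells. All 3 populations carried both reporters, tdTomato knocked into 1 allele of *Ccl21a* (CCL21a-tdTomato) and Venus driven from *Tnfrsf11a*, which encodes RANK (RANK-Venus), so that CCL21 and RANK in the names stand for reporter fluorescence. The sources used here do not say whether embryos were pooled or whether libraries came from separate litters, and p-values therefore measure the spread between these libraries. Each library held between 42751858 and 71625319 counts.

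T cell costimulation is the second signal that a cell displaying antigen gives beside the antigen itself. The B7 proteins CD80 and CD86 engage CD28 and CTLA-4 on T cells, ICOS ligand engages ICOS, and PD-L1 and PD-L2 engage the inhibitory receptor PD-1. OX40L and 4-1BBL are ligands of the TNF family that engage OX40 and 4-1BB. In the thymus medulla, CD80 and CD86 on epithelial and dendritic cells take part in the generation of regulatory T cells, and CD80 is a usual marker of mature medullary thymic epithelial cells (mTECs).

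The labels held in the RNA more closely for RANK than for CCL21. *Ccl21a* averaged 404 RPKM in CCL21+RANK- TECs, 109 in CCL21-RANK+ TECs and 7.88 in CCL21-RANK- TECs, where RPKM are reads normalised to exon length and to library size. CCL21-RANK+ TECs, sorted as negative for the CCL21 reporter, thus held *Ccl21a* mRNA, 12.6 times the level of CCL21-RANK- TECs (adjusted p = 2.49e-05 by edgeR) and 4.10-fold below CCL21+RANK- TECs. *Tnfrsf11a* averaged 9.50, 104 and 2.44 RPKM in the same order, and *Aire*, the regulator of self-antigen expression in mTECs, 0.747, 113 and 0.465 RPKM. CCL21+RANK- TECs, sorted as negative for the RANK reporter, held 3.88 times the *Tnfrsf11a* level of CCL21-RANK- TECs (adjusted p = 8.7e-05 by edgeR). All 8 listed markers of thymic epithelium were above 3 counts in every library, among them *Psmb11*, a gene of cortical TECs, at 267 RPKM in CCL21+RANK- and 296 in CCL21-RANK- but 20.7 in CCL21-RANK+ TECs. Their summed RPKM was 1807, 1986 and 1643 in CCL21-RANK+, 4932, 4932 and 5697 in CCL21+RANK- and 4482 and 4763 in CCL21-RANK- samples. Against CCL21+RANK- TECs, *Krt18* (5.44-fold), *Krt8* (2.58-fold), *Pax1* (5.70-fold), *Krt5* (2.38-fold), *Foxn1* (1.92-fold) and *Psmb11* (13.7-fold) were lower in CCL21-RANK+ TECs. *Epcam* (2.05-fold) and *Aire* were higher, each of these with an adjusted p under 0.05 by edgeR.

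The populations differed in the levels and the order of the ligands. *Cd274* was by far the most abundant of the 9 in CCL21+RANK- and CCL21-RANK- TECs, whereas CCL21-RANK+ TECs had *Icosl* first and were the only population in which *Cd80*, *Cd86* and *Tnfsf9* averaged more than 1 RPKM. Of the 8 ligands that passed the expression filter, 7 were called between CCL21-RANK+ TECs and CCL21+RANK- TECs, 4 of them higher in CCL21-RANK+ and 3 higher in CCL21+RANK- TECs. A call required an adjusted p-value under 0.05 by the quasi-likelihood test of edgeR, a fold change over 1.5 and a mean above 1 RPKM in the higher population, and 30.8% of all 21451 tested genes were called in this comparison (15.4% in each direction). At the adjusted p-value alone 7 of 8 passed, beside 53.7% of all genes, and in 7 of 8 the libraries of the 2 populations did not overlap, beside 59.8%. *Tnfsf4* did not pass the filter and was not tested. In bulk RNA, fewer cells with a transcript and less of it per cell cannot be told apart.

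**Figure D1:**
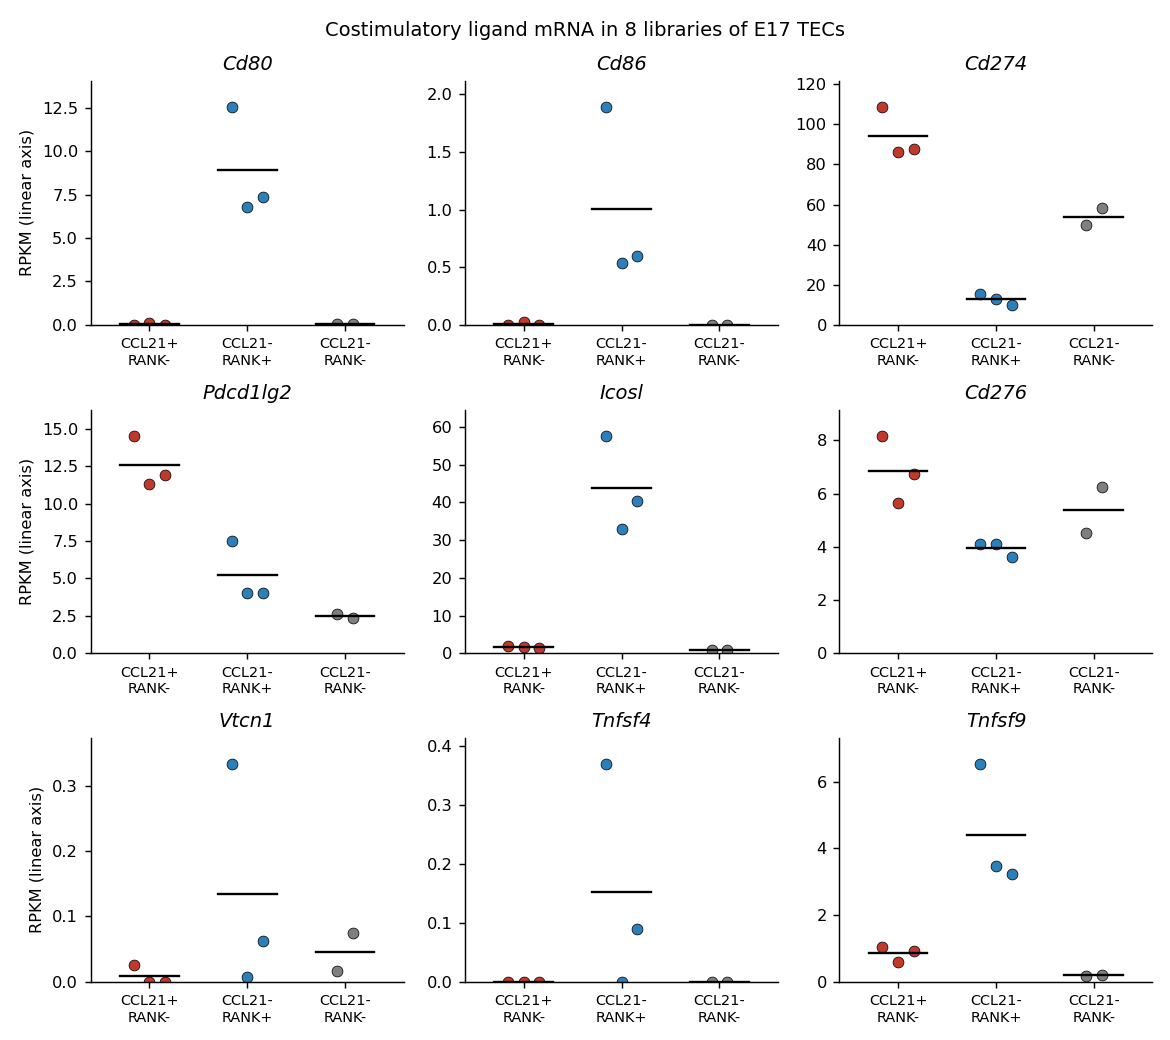
RPKM of the 9 ligands (vertical, linear axes from 0, a separate scale per gene) in CCL21+RANK- (red), CCL21-RANK+ (blue) and CCL21-RANK- TECs (grey). Each point is 1 library and each line a group mean. *Cd80*, *Cd86*, *Icosl* and *Tnfsf9* are highest in the 3 CCL21-RANK+ samples, and *Cd274* and *Pdcd1lg2* in the 3 CCL21+RANK- samples.

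Regulatory sequence is shown for 3 ligands, because *Cd274* on the one hand and *Icosl* and *Cd80* on the other had opposite patterns. RefSeq start sites were given for 6 of the 9 genes, and the bases before the start that lie in no annotated exon of the gene are shown 5′ to 3′ on the plus strand of GRCm38.p6, with a match to an interferon element in capitals. The *Icosl* and *Cd80* starts lie inside the longer annotated genes. The *Icosl* bases shown therefore end where its annotated gene begins, before the RefSeq start.
*Cd274*, chr19:29367188-29367437: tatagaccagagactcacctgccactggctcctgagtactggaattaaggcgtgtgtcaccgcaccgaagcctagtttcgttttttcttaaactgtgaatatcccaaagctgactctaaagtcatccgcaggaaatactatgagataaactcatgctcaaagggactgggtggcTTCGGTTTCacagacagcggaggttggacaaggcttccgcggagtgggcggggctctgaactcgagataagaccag
*Icosl*, chr10:78069118-78069301: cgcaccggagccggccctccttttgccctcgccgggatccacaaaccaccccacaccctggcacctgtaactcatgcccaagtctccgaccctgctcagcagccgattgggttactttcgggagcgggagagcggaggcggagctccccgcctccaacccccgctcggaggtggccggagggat
*Cd80*, chr16:38458683-38458932: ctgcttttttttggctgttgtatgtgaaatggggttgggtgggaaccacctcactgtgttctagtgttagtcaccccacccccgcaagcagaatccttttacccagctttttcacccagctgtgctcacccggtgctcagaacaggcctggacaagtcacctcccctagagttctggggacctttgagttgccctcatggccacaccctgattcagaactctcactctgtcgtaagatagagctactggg
Windows from 250 bases before to 50 bases after each start were searched on both strands for letters of the NF-kB element (GGANTTTCC and GGGNNTTCC), the interferon element GAAANNGAA and the STAT element TTCNNNGAA, which reads the same on both strands. Among the 6 ligands the searched letters occurred once, as TTCGGTTTC in the *Cd274* window at -76 to -68 from the start, which is GAAANNGAA on the minus strand. Of 32851 RefSeq promoters, 8.56% held GAAANNGAA, 8.3% TTCNNNGAA, 5.82% GGGNNTTCC and 1.25% GGANTTTCC. The match is a description of letters and not of binding.

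The CD28 and CTLA-4 ligands *Cd80* and *Cd86* were far more abundant in CCL21-RANK+ TECs than elsewhere. *Cd80* (chr16:38455561-38496335, plus strand) had 12.6, 6.79 and 7.39 RPKM in the CCL21-RANK+ samples, 0.00453, 0.129 and 0.0147 in the CCL21+RANK- samples and 0.0641 and 0.0264 in the CCL21-RANK- samples. The CCL21-RANK+ samples lay apart from all others, which held between 1 and 22 counts of *Cd80* each against 1170 to 2664. *Cd80* was 174-fold higher in CCL21-RANK+ TECs than in CCL21+RANK- TECs (log2 7.45 ± 0.75 SE, adjusted p = 2.85e-05 by edgeR) and 178-fold higher than in CCL21-RANK- TECs (7.47 ± 0.89, adjusted p = 0.000101). These folds rest on few counts in the lower population. The first was log2 9.74 without CCL21+RANK- replicate 2 and 6.85 without replicate 1, and the second 8.30 and 6.90 without CCL21-RANK- replicate 1 and 2, each still past the threshold. Between the CCL21+RANK- and CCL21-RANK- populations the libraries overlapped, with a log2 difference of 0.03 and a 95% interval from -2.23 to 2.28.

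*Cd86* (chr16:36603869-36666081, minus strand) had 396, 98 and 93 counts in the CCL21-RANK+ samples, 0, 4 and 0 in the CCL21+RANK- samples and 0 and 0 in the CCL21-RANK- samples. These were 1.89, 0.534 and 0.594 RPKM in CCL21-RANK+ TECs, a low level beside *Cd80*, which exceeded *Cd86* 6.65-fold, 12.7-fold and 12.4-fold in the same libraries. Every CCL21-RANK+ library lay above every other library. The fitted log2 fold change against CCL21+RANK- TECs was 6.86 ± 1.14 (adjusted p = 0.00106 by edgeR) and rests on 4 counts in that population, all in replicate 2. It was 6.24 without either of the other CCL21+RANK- samples. Without replicate 2 the CCL21+RANK- samples were all at 0. *Cd86* was then at least 70.3-fold higher in CCL21-RANK+ TECs (adjusted p = 0.00164 by edgeR), with 3 counts in place of each 0. The mean behind this bound was raised by CCL21-RANK+ replicate 1 (1.89 RPKM against 0.534 and 0.594). Against CCL21-RANK- TECs *Cd86* was at least 85.2-fold higher (adjusted p = 0.00140), when each library at 0 was set to 3 counts, and at least 47.8-fold higher without CCL21-RANK+ replicate 1. The *Cd86* mean exceeded 1 RPKM by its first CCL21-RANK+ library, and without that library it was no longer called, although its adjusted p was 0.00343 and 0.00341 in the same comparisons. The pair lies 1.789 Mb apart on chromosome 16 with 46 annotated genes between them.

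*Icosl* (chr10:78069302-78083913, plus strand), the ligand of ICOS, was the most abundant of the 9 ligands in CCL21-RANK+ TECs. It had 57.7, 33.0 and 40.4 RPKM in the CCL21-RANK+ samples, 1.97, 1.62 and 1.32 in the CCL21+RANK- samples and 0.789 and 0.849 in the CCL21-RANK- samples. None of the 3 populations overlapped. The difference was 24.2-fold between CCL21-RANK+ TECs and CCL21+RANK- TECs (log2 4.60 ± 0.23, adjusted p = 5.78e-07 by edgeR) and 48.7-fold between CCL21-RANK+ TECs and CCL21-RANK- TECs (5.61 ± 0.28, adjusted p = 7.73e-07). There was 2.01-fold more *Icosl* in CCL21+RANK- TECs than in CCL21-RANK- TECs (1.01 ± 0.24, adjusted p = 0.0239). That last call was lost without CCL21+RANK- replicate 1 (adjusted p = 0.0671) or 2 (0.0756) and without either CCL21-RANK- library (0.130 and 0.164).

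**Figure D2:**
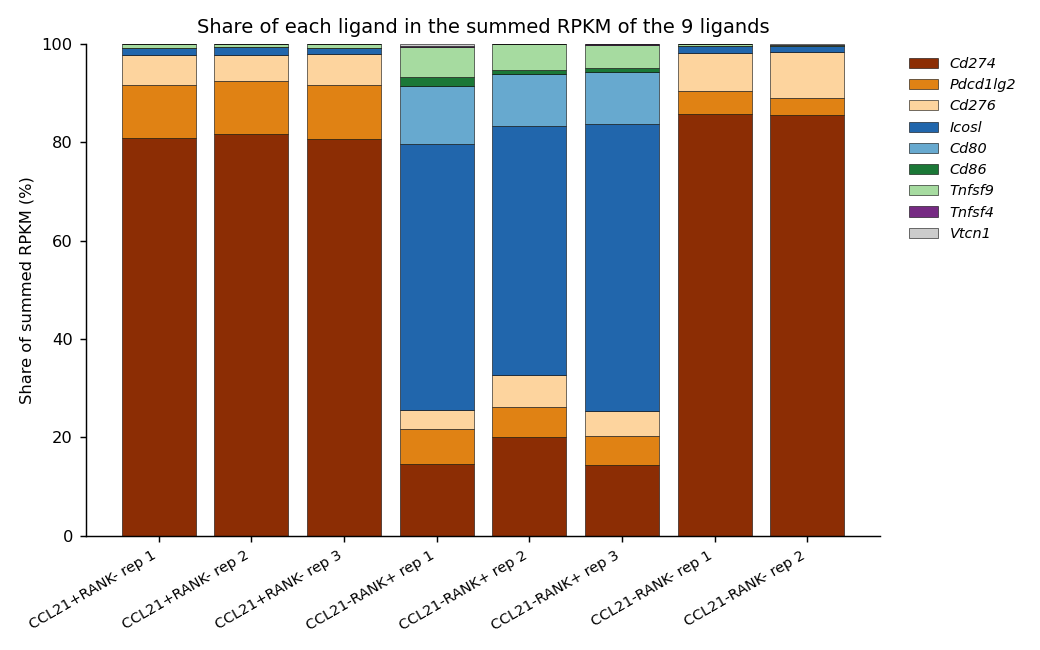
Share (%) of each ligand in the summed RPKM of the 9 ligands, one stacked bar per library. *Cd274* makes up 80.7% to 81.7% of the sum in CCL21+RANK- and 85.6% to 85.8% in CCL21-RANK- samples, and *Icosl* 50.8% to 58.2% in CCL21-RANK+ samples.

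The PD-1 ligands were highest in CCL21+RANK- TECs. *Cd274* (chr19:29367455-29388095, plus strand), which encodes PD-L1, had 109, 86.2 and 87.7 RPKM in the CCL21+RANK- samples, 15.6, 13.0 and 10.003 in the CCL21-RANK+ samples and 49.7 and 58.2 in the CCL21-RANK- samples. The 3 populations did not overlap, and the order was CCL21+RANK-, CCL21-RANK-, CCL21-RANK+. *Cd274* was 7.99-fold higher in CCL21+RANK- TECs than in CCL21-RANK+ TECs (the log2 ratio of CCL21-RANK+ over CCL21+RANK- -3.00 ± 0.17, adjusted p = 1.06e-06 by edgeR) and 4.55-fold higher in CCL21-RANK- TECs than in CCL21-RANK+ TECs (-2.19 ± 0.17, adjusted p = 7.88e-06). The 1.75-fold difference between CCL21+RANK- TECs and CCL21-RANK- TECs (0.81 ± 0.18, adjusted p = 0.0179) was lost without CCL21+RANK- replicate 2 (adjusted p = 0.0540) or without CCL21-RANK- replicate 1 (0.134) or 2 (0.117). An annotated gene on the opposite strand, AC119228.1, shares 511 exon bases with *Cd274* and had at most 89 counts in a library, where *Cd274* had 1549 to 23469.

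*Pdcd1lg2* (chr19:29410919-29471161, plus strand), which encodes PD-L2, follows *Cd274* on the same strand after 22.8 kb with no annotated gene between. Its level was 14.5, 11.3 and 11.9 RPKM in the CCL21+RANK- samples, 7.52, 4.06 and 4.04 in the CCL21-RANK+ samples and 2.62 and 2.39 in the CCL21-RANK- samples. The populations again did not overlap, but here CCL21-RANK- TECs were lowest. *Pdcd1lg2* was 2.65-fold higher in CCL21+RANK- TECs than in CCL21-RANK+ TECs (the log2 ratio of CCL21-RANK+ over CCL21+RANK- -1.41 ± 0.23, adjusted p = 0.000659 by edgeR) and 5.02-fold higher than in CCL21-RANK- TECs (2.33 ± 0.28, adjusted p = 0.000982). Its level in CCL21-RANK+ TECs was 1.89-fold that in CCL21-RANK- TECs (0.92 ± 0.26, adjusted p = 0.0160), a difference that missed the threshold without CCL21-RANK- replicate 2 (adjusted p = 0.123). The RPKM ratio of *Cd274* to *Pdcd1lg2* ran from 7.35 to 7.64 in CCL21+RANK-, from 2.07 to 3.21 in CCL21-RANK+ and from 19.0 to 24.4 in CCL21-RANK- samples, without overlap.

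Between *Icosl* and *Cd274*, the leading ligand changed with the population. *Icosl* was at 2.54 to 4.04 times the RPKM of *Cd274* in CCL21-RANK+ samples, but at 0.0151 to 0.0188 times in CCL21+RANK- and 0.0146 to 0.0159 times in CCL21-RANK- samples. The summed RPKM of the 9 ligands was 116 ± 15.8 (SD, n = 3) in CCL21+RANK- TECs, 80.3 ± 22.8 (n = 3) in CCL21-RANK+ TECs and 63.0 ± 7.21 (n = 2) in CCL21-RANK- TECs, with CCL21-RANK+ replicate 1 (106.6) inside the range of CCL21+RANK- TECs (105.6 to 134.3) and the other CCL21-RANK+ samples overlapping those of CCL21-RANK- TECs (65.0 and 69.4 against 57.9 and 68.1). With TMM-scaled library sizes CCL21-RANK+ replicate 1 fell to 95.7, below all CCL21+RANK- samples (104.1 to 138.7), while the other overlap stayed. Without the counts of Gm26917 and Gm42418, 2 abundant noncoding genes, the CCL21-RANK+ sums (131.3, 84.7 and 86.1) no longer overlapped those of CCL21-RANK- TECs (72.8 and 74.3).

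The B7 members with less well known receptors differed less or were scarce. *Cd276* (chr9:58524298-58555437, minus strand), which encodes B7-H3, had 8.18, 5.66 and 6.75 RPKM in the CCL21+RANK- samples, 4.09, 4.12 and 3.62 in the CCL21-RANK+ samples and 4.52 and 6.26 in the CCL21-RANK- samples. It stayed between 3.62 and 8.18 RPKM in all libraries and was 1.89-fold higher in CCL21+RANK- TECs than in CCL21-RANK+ TECs (the log2 ratio of CCL21-RANK+ over CCL21+RANK- -0.92 ± 0.16, adjusted p = 0.000880 by edgeR). The 1.47-fold excess in CCL21-RANK- over CCL21-RANK+ TECs (adjusted p = 0.0225) was under the fold threshold and was not called. The CCL21+RANK- and CCL21-RANK- samples overlapped, with a log2 difference of 0.36 (95% interval -0.03 to 0.75). Gm10657, on the opposite strand with 416 shared exon bases, had 7 to 76 counts.

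*Vtcn1* (chr3:100825459-100896922, plus strand), which encodes B7-H4, had 4, 0 and 0 counts in the CCL21+RANK- samples, 50, 1 and 7 in the CCL21-RANK+ samples and 3 and 14 in the CCL21-RANK- samples. The populations overlapped and no difference was called (adjusted p = 0.0813, 0.496 and 0.472 by edgeR). Its highest level was 0.333 RPKM, in CCL21-RANK+ replicate 1.

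The TNF family ligands were detected mainly in CCL21-RANK+ TECs. *Tnfsf9* (chr17:57105325-57107757, plus strand), which encodes 4-1BBL, had 6.52, 3.48 and 3.23 RPKM in the CCL21-RANK+ samples, 1.04, 0.590 and 0.914 in the CCL21+RANK- samples and 0.184 and 0.216 in the CCL21-RANK- samples. The 3 populations did not overlap. It was 4.75-fold higher in CCL21-RANK+ TECs than in CCL21+RANK- TECs (log2 2.25 ± 0.37, adjusted p = 0.000735 by edgeR) and 19.9-fold higher than in CCL21-RANK- TECs (4.32 ± 0.49, adjusted p = 8.03e-05). The 4.20-fold difference between the other two (2.07 ± 0.45, adjusted p = 0.0181) was not called because neither mean exceeded 1 RPKM, and its adjusted p rose to 0.127 and 0.134 without either CCL21-RANK- library. It was called without the counts of Gm26917 and Gm42418 (adjusted p = 0.0203), where the CCL21+RANK- mean passed that level. Gm11110 on the opposite strand shares 192 exon bases with *Tnfsf9* and had 114, 90 and 83 counts in the CCL21-RANK+ samples, 16, 18 and 6 in the CCL21+RANK- samples and 49 and 40 in the CCL21-RANK- samples. In the last 2 this exceeded the 16 and 20 counts of *Tnfsf9*. Whether strand was used in counting is not given in the sources used here, so the level of *Tnfsf9* is uncertain.

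*Tnfsf4* (chr1:161395409-161418410, plus strand), which encodes OX40L, had 39, 0 and 7 counts in the CCL21-RANK+ samples and 0 in the 5 other libraries. Its CCL21-RANK+ mean of 0.153 ± 0.193 RPKM (SD, n = 3) was at least 4.97-fold higher than in CCL21+RANK- and at least 6.52-fold higher than in CCL21-RANK- TECs, with each library of the lower population set to 3 counts and the CCL21-RANK+ sample at 0 kept at 0. These bounds rest on CCL21-RANK+ replicate 1 and were 1.45-fold and 1.90-fold without it. In the 6 libraries at 0, that count allowed a level of up to 0.0419 to 0.0652 CPM (counts normalised to library size).

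Against CCL21-RANK- TECs, 6 of the 8 tested ligands were called in CCL21-RANK+ TECs, beside 29.5% of all tested genes. *Cd80*, *Cd86*, *Icosl*, *Pdcd1lg2* and *Tnfsf9* were higher in CCL21-RANK+ TECs, a direction called for 14.4% of genes, and *Cd274* was higher in CCL21-RANK- TECs, a direction called for 15.1%. The adjusted p-value alone was passed by 7 of 8, beside 49.0% of genes, and 7 of 8 did not overlap, beside 65.7%. Between CCL21+RANK- TECs and CCL21-RANK- TECs, 3 of 8 were called, *Cd274*, *Icosl* and *Pdcd1lg2*, each higher in CCL21+RANK- TECs, beside 8.02% of all tested genes (4.35% in that direction and 3.66% in the other). Here 4 of 8 passed the adjusted p-value alone, beside 11.4% of genes, and 4 of 8 did not overlap, beside 38.9%. Each population enters 2 of the comparisons. The median log2 fold change of the tested ligands was 2.93, 2.86 and 0.91 in the 3 comparisons, in the order of the plot of fold changes, beside 0.11, 0.06 and 0 over all tested genes. The first 2 medians lie between *Tnfsf9* and the scarce *Vtcn1*, which was not called. The comparisons with CCL21-RANK- TECs include fits of *Cd86* against libraries all at 0. In the first comparison *Cd274*, *Pdcd1lg2* and *Cd276* went down, so the medians do not describe a shift of all the ligands.

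**Figure D3:**
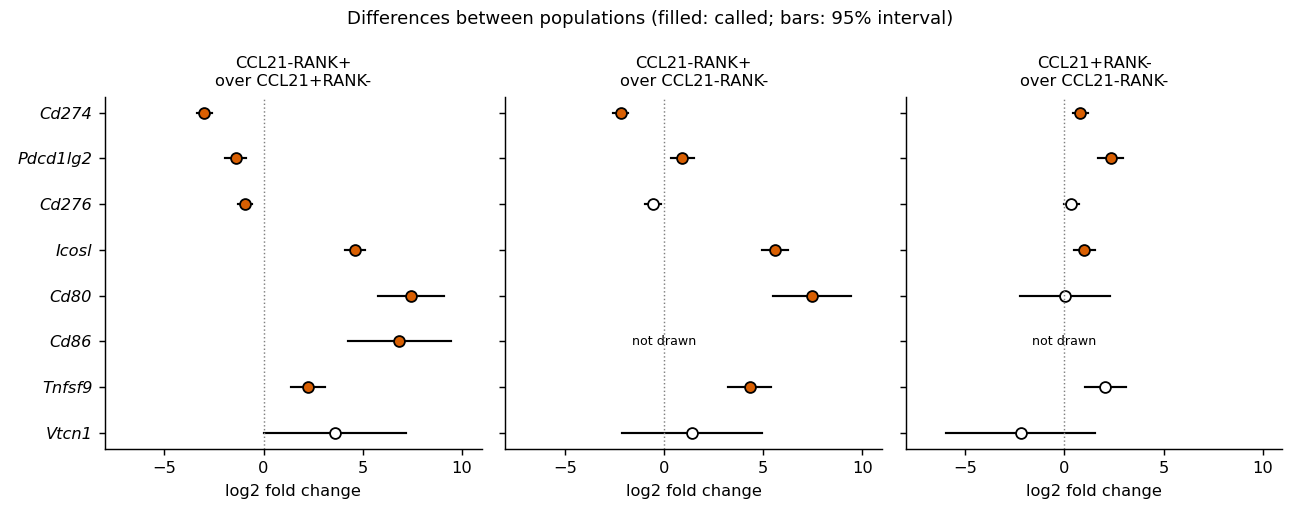
log2 fold change of the 8 tested ligands in the 3 comparisons, with 95% intervals from the edgeR fit. Filled points were called. *Cd86* is not drawn where CCL21-RANK- samples, all at 0, are the reference. *Cd274*, *Pdcd1lg2* and *Cd276* lie left of 0 and *Icosl*, *Cd80*, *Cd86* and *Tnfsf9* right of 0 in the first panel.

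The first CCL21-RANK+ library was the highest of the 3 for 8 of the 9 ligands, all but *Cd276*, and also for markers of other cells. Markers of macrophages and monocytes summed to 77.8, 21.4 and 26.6 RPKM in the CCL21-RANK+ samples, to 0.691, 0.488 and 0.0638 in the CCL21+RANK- samples and to 0.368 and 0.246 in the CCL21-RANK- samples. *Lyz2* was the most abundant in CCL21-RANK+ TECs at 52.3, 14.7 and 17.8 RPKM, and *Fcgr1* was at 0 in every library. All 6 tested of the 7 markers were called higher in CCL21-RANK+ TECs than in CCL21+RANK- TECs, beside 15.4% of all tested genes. None averaged more than 1 RPKM in the CCL21+RANK- samples, so none could be called higher there. Macrophages express *Cd86* and *Cd80*. Whether the marker transcripts came from such cells or from the TECs themselves was not tested. The part of such cells, if present, in these results was not tested. *Ptprc*, which encodes the CD45 used to exclude haematopoietic cells in the sort, had 0.576, 0.178 and 0.422 RPKM in the CCL21-RANK+ samples, between 0.0684 and 0.193 in the CCL21+RANK- samples and 0.0518 and 0.0351 in the CCL21-RANK- samples.

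Dendritic cell markers summed to 6.37, 4.10 and 4.78 RPKM in CCL21-RANK+, 1.72, 1.09 and 1.21 in CCL21+RANK- and 0.366 and 0.432 in CCL21-RANK- samples. *Zbtb46* led in every library and was the only one of the 5 tested (of 8) to be called between CCL21-RANK+ TECs and CCL21+RANK- TECs. *Flt3* (0.608 against 0.00333 RPKM, adjusted p = 5.92e-05 by edgeR), *Xcr1* (0.146 against 0.00261, 0.00288) and *Batf3* (0.884 against 0.0525, 0.0213) were also higher in CCL21-RANK+ TECs but averaged under 1 RPKM, which kept them from being called. *Itgax* averaged 0.0832 RPKM (adjusted p = 0.0863) and *Clec9a*, not tested, 0.00353 RPKM in CCL21-RANK+ TECs. B cell markers summed to 11.4, 5.71 and 6.47 RPKM in the CCL21-RANK+ samples and to at most 0.904 elsewhere, with *Cd79b* leading and 2 of 5 called, *Cd79b* and *Pax5*. Mesenchymal markers summed to 31.0, 11.5 and 20.2 RPKM in CCL21-RANK+ and at most 1.74 in other libraries, mostly *Col1a1*. Of these 2 of 3 were called, while the third, *Pdgfra*, was lower in CCL21-RANK+ TECs (0.0680 against 0.196 RPKM in CCL21+RANK- TECs, adjusted p = 0.0283 by edgeR) at levels too low for a call. Endothelial markers summed to 1.86, 1.13 and 0.974 against at most 0.293, with 0 of 3 called. *Pecam1* (0.537 against 0.151 RPKM in CCL21+RANK- TECs, adjusted p = 0.00589 by edgeR) and *Cdh5* (0.687 against 0.0328, 0.0170) were higher in CCL21-RANK+ TECs. Both averaged under 1 RPKM, which kept them from being called. T cell and thymocyte markers summed to 20.6, 9.07 and 16.97 RPKM in CCL21-RANK+ and to 10.7, 4.56 and 6.35 in CCL21+RANK- samples and 3.62 and 3.25 in CCL21-RANK- samples, with *Rag1* or *Lck* leading and 2 of 8 called. The part of these cells in the results was not tested either.

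Without CCL21-RANK+ replicate 1, *Vtcn1* was not tested. Of the other tested ligands, 6 were called against CCL21+RANK- and 5 against CCL21-RANK- TECs, *Cd86* being the one lost in each, beside 30.5% and 28.6% of the 20345 genes then tested. The log2 fold change against CCL21+RANK- TECs was then 7.17 for *Cd80*, 6.09 for *Cd86*, 4.40 for *Icosl* and 1.92 for *Tnfsf9*.

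**Figure D4:**
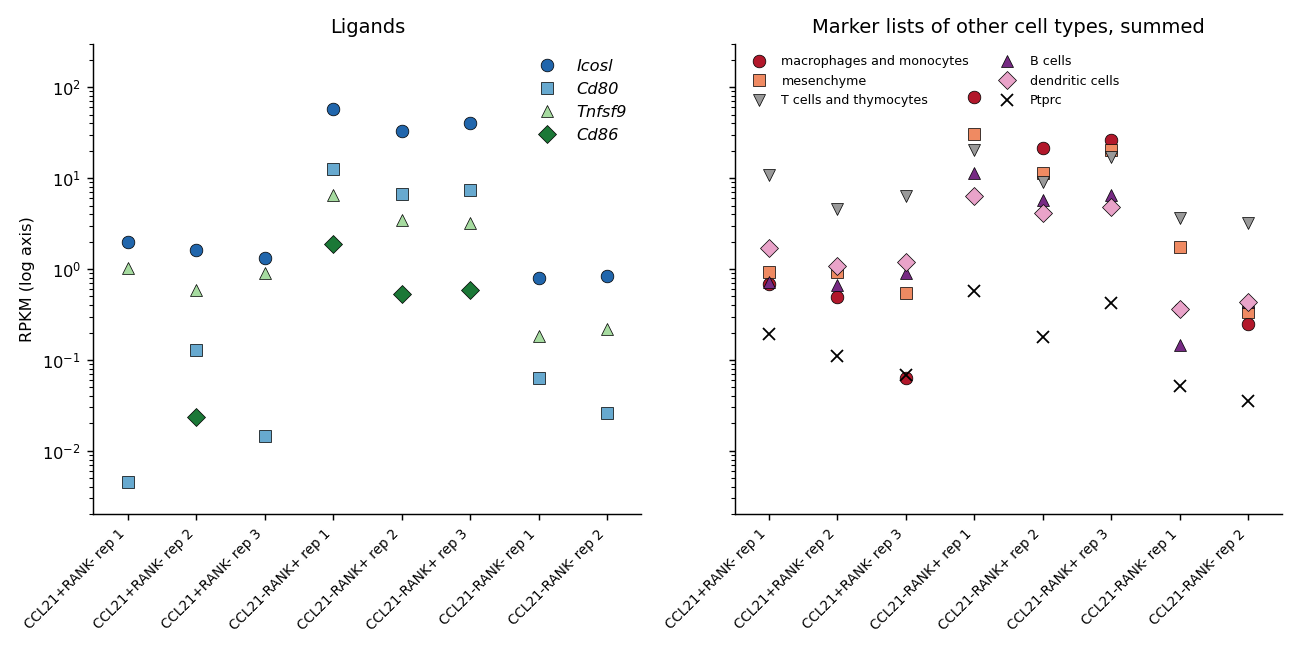
RPKM (log axes) of *Icosl*, *Cd80*, *Tnfsf9* and *Cd86* (left) and summed RPKM of marker lists of other cell types with *Ptprc* alone (right) in each library. Values of 0 are not drawn. Both the ligands and the macrophage, B cell and mesenchymal sums are highest in CCL21-RANK+ replicate 1.

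In the CCL21+RANK- population, markers of the parathyroid, a neighbour of the embryonic thymus, were abundant. They summed to 7122, 1750 and 1955 RPKM in the CCL21+RANK- samples and to at most 24.9 elsewhere, with *Chga* leading in CCL21+RANK- samples. All 4 markers were called higher in CCL21+RANK- TECs than in CCL21-RANK+ and CCL21-RANK- TECs, beside 15.4% and 4.35% of all tested genes. CCL21+RANK- replicate 1 was highest in this sum and in *Cd274*, *Pdcd1lg2*, *Cd276*, *Icosl*, *Tnfsf9* and *Vtcn1* among the 3. Without it, the log2 fold change of CCL21-RANK+ over CCL21+RANK- TECs was -2.88 for *Cd274*, -1.29 for *Pdcd1lg2* and -0.77 for *Cd276*, and all 7 ligands were called. The part of parathyroid cells in the levels was not tested.

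The order of the ligands within a population was read from RPKM. In CCL21+RANK- TECs it was *Cd274* (94.2 ± 12.5, SD, n = 3), *Pdcd1lg2* (12.6 ± 1.73), *Cd276* (6.86 ± 1.26), *Icosl* (1.64 ± 0.323) and *Tnfsf9* (0.848 ± 0.232), with no overlap between neighbours, before the near-absent others. CCL21-RANK- TECs had *Cd274* (54.0 ± 6.07, n = 2), *Cd276* (5.39 ± 1.23), *Pdcd1lg2* (2.5 ± 0.163) and *Icosl* (0.819 ± 0.0423), again with no overlap. In CCL21-RANK+ TECs *Icosl* (43.7 ± 12.7, n = 3) stood apart from *Cd274* (12.9 ± 2.79), but the libraries of *Cd274*, *Cd80* (8.91 ± 3.17), *Pdcd1lg2* (5.21 ± 2.00), *Tnfsf9* (4.41 ± 1.83) and *Cd276* (3.94 ± 0.282) overlapped from each neighbour to the next. *Cd86* (1.01 ± 0.765) lay below these.

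The genes most like each ligand across the 8 libraries were sought by Pearson correlation of log2 CPM among 11872 genes, as a description in which the 3 populations set most of the likeness. *Cd80* was most like *Krt86*, *Gucy2c* and *Tgfb2* (r = 0.996, 0.996 and 0.995), and *Cd86* most like *Sst*, *Epb42* and *Cacna1e* (r from 0.997 to 0.999). *Sst* encodes the hormone somatostatin and *Gucy2c* an intestinal receptor. For *Cd274* the closest were *Mcur1*, *Zbtb4* and the sodium channel gene *Scnn1a* (r from 0.998 to 0.999). *Icosl* had *Tmem173*, which encodes the DNA sensing adaptor STING, *Rftn1* and *Zmiz2* (r from 0.999 to 1.000). *Pdcd1lg2* was closest to *Igtp*, an interferon-induced GTPase gene, *Rbfox1* and the vitamin D receptor gene *Vdr* (r from 0.987 to 0.993), *Cd276* to *Szrd1*, *Nkd1* and *Pdpn* (r from 0.987 to 0.990), *Tnfsf9* to *Prr13*, *Dnmbp* and *H2-Aa*, an MHC class II gene (r from 0.994 to 0.995), and the scarce *Vtcn1* to *Ift57*, *Usmg5* and *Pea15a* (r from 0.940 to 0.950). No gene appeared in 2 of these lists.

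Other ligands of T cell costimulation and coinhibition were called in both directions. Of 24 listed, 23 were tested, and 6 were called higher in CCL21-RANK+ and 5 higher in CCL21+RANK- TECs, beside 15.4% of all tested genes in each direction. *Icam1*, the LFA-1 ligand ICAM-1, averaged 159 ± 36.8 RPKM (SD, n = 3) in CCL21-RANK+ and 79.8 ± 13.2 (n = 3) in CCL21+RANK- TECs (adjusted p = 0.00182 by edgeR). The adhesion molecule gene *Nectin1* (67.3 ± 2.501 against 150 ± 17.3, adjusted p = 1.09e-05) and *Lgals9*, which encodes galectin-9 (8.44 ± 1.15 against 58.0 ± 10.7, adjusted p = 1.63e-06), were higher in CCL21+RANK- TECs, and *Nectin2* was not called (11.2 ± 2.54 against 8.34 ± 1.78). The other calls, named after their values were seen, were *Cd40*, *Cd70*, *Nectin3*, *Vsir* and *Btnl2* higher in CCL21-RANK+ and *Tnfrsf14*, *Pvr* and *Cd200* higher in CCL21+RANK- TECs. The *Vsir* mean in CCL21-RANK+ TECs (1.03 RPKM) exceeded 1 RPKM only by replicate 1 (1.99, 0.501 and 0.606 RPKM in the 3 samples). *Cd70*, the ligand of CD27, had 12.3, 13.8 and 15.9 RPKM in the CCL21-RANK+ samples, between 0.716 and 1.73 in the CCL21+RANK- samples and 0.986 and 0.647 in the CCL21-RANK- samples. Unlike *Cd80* and *Cd86*, it was lowest of the 3 CCL21-RANK+ samples in replicate 1. Against CCL21-RANK- TECs the calls were 6 higher in CCL21-RANK+ and 4 higher in CCL21-RANK- TECs, beside 14.4% and 15.1% of all genes, and CCL21+RANK- against CCL21-RANK- TECs gave 3 and 0, beside 4.35% and 3.66%. The median log2 fold change of the list was 1.39, 1.40 and 0.54 in these comparisons, beside 0.11, 0.06 and 0 over all tested genes. Scarce genes such as *Tnfsf8* and *Tnfsf14* had counts mainly in CCL21-RANK+ TECs. The medians of the comparisons with that population may therefore lean that way through the filter.

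**Figure D5:**
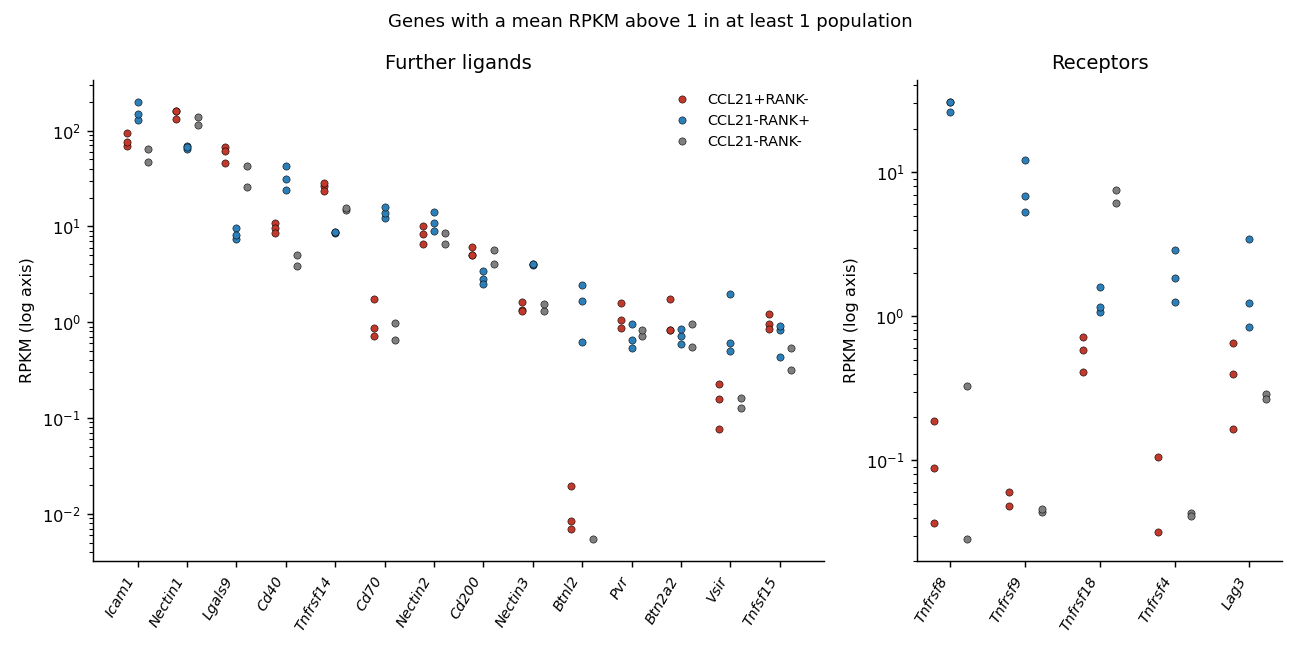
RPKM (log axes) of the further ligands (left) and the receptors (right) whose mean exceeds 1 RPKM in at least 1 population. Points are libraries, coloured by population, and values of 0 are not drawn. *Tnfrsf8*, *Tnfrsf9* and *Tnfrsf4* are highest in the CCL21-RANK+ and *Tnfrsf18* in the CCL21-RANK- samples.

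Of 18 listed receptors of these ligands, 16 were tested. Of these, 5 were called higher in CCL21-RANK+ TECs than in CCL21+RANK- TECs, beside 15.4% of all tested genes in that direction. No listed receptor averaged more than 1 RPKM in CCL21+RANK- TECs (highest *Tnfrsf18*, 0.571), so none could be called higher there. The median log2 fold change was 3.02, beside 0.11 over all genes. Many of the receptors were near 0 outside CCL21-RANK+ TECs and passed the filter through that population, which raises this median. *Tnfrsf8*, the CD30 gene, averaged 29.3 ± 2.68 RPKM (SD, n = 3) against 0.105 ± 0.0774 (adjusted p = 1.07e-05 by edgeR), and *Tnfrsf9*, which encodes the 4-1BB receptor of the *Tnfsf9* product, 8.06 ± 3.55 against 0.0360 ± 0.0317 (adjusted p = 7.73e-06). *Tnfrsf18*, the GITR gene, was higher in CCL21-RANK+ TECs than in CCL21+RANK- TECs (1.28 ± 0.283 against 0.571 ± 0.151, adjusted p = 0.0122) but highest in CCL21-RANK- TECs (6.82 ± 0.972, n = 2). The other 2 calls, named after their values were seen, were *Tnfrsf4*, which encodes the OX40 receptor of the *Tnfsf4* product, and *Lag3*. *Pdcd1*, the PD-1 gene, averaged 0.601 RPKM in CCL21-RANK+ TECs against 0.0116 in the CCL21+RANK- samples, of which 1 had counts (adjusted p = 0.00370), and was not called only because its mean was under 1 RPKM. Against CCL21-RANK- TECs 4 receptors were higher in CCL21-RANK+ and 1 (*Tnfrsf18*) higher in CCL21-RANK- TECs, beside 14.4% and 15.1% of all genes (median 4.91, beside 0.06, with the same limit). *Tnfrsf18* was also the only listed receptor above 1 RPKM in CCL21-RANK- TECs, so no other could be called higher there. *Tnfrsf18* was the 1 called between CCL21+RANK- TECs and CCL21-RANK- TECs, where 8.02% of all genes were called (median 0.48, beside 0).

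Genes of mTEC maturation, listed for comparison with *Cd80*, were called higher in CCL21-RANK+ TECs than in CCL21+RANK- TECs in 7 of 11 cases, and 1, *Ciita*, the class II transactivator gene, was higher in CCL21+RANK- TECs, beside 15.4% of all tested genes in each direction. *Cd74*, the invariant chain gene, averaged 2572 against 1370 RPKM (adjusted p = 0.00541 by edgeR), *H2-Eb1* 752 against 402 (0.00216) and *H2-Aa* 526 against 262 (0.000337), whereas *H2-Ab1* at 954 against 684 was not called. The folds of *Cd74*, *H2-Eb1* and *H2-Aa* were 1.71, 1.71 and 1.84. The other 4 genes called higher, named after their values were seen, had larger folds, 18.3 for *Ctss*, 138 for *Aire*, 395 for *Fezf2* and 545 for *Ccl22*. The list gave 8 calls higher in CCL21-RANK+ and 0 lower against CCL21-RANK- TECs, beside 14.4% and 15.1% of all genes, and 3 and 0 between CCL21+RANK- TECs and CCL21-RANK- TECs, beside 4.35% and 3.66%. Its median log2 fold changes were 0.78, 1.46 and 0.57, beside 0.11, 0.06 and 0 over all genes.

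Of 18 known regulators of ligand expression or turnover, 2 were called higher in CCL21-RANK+ (*Nfkb2* and *Ifngr2*, the latter named after its value was seen) and 10 higher in CCL21+RANK- TECs, beside 15.4% of all tested genes in each direction. *Nfkb2*, of the noncanonical NF-kB pathway downstream of RANK, was at 127 ± 18.8 against 75.2 ± 3.68 RPKM (SD, n = 3 each, adjusted p = 0.000855 by edgeR). *Cd83*, whose product hinders the turnover of CD86 and MHC class II on the cell surface, had 8.84, 8.17 and 5.88 RPKM in the CCL21-RANK+ samples, between 64.7 and 79.6 in the CCL21+RANK- samples and 77.8 and 85.7 in the CCL21-RANK- samples (adjusted p = 5.07e-07 against CCL21+RANK- TECs), so that it was lowest where *Cd86* was highest. *Irf1*, a transcription factor that binds interferon elements, was at 27.7 ± 0.854 against 70.1 ± 9.12 RPKM (adjusted p = 2.5e-06) and 52.7 ± 5.23 (n = 2) in CCL21-RANK- TECs, in the same order of populations as *Cd274*, although the 1.33-fold difference between CCL21+RANK- TECs and CCL21-RANK- TECs was under the fold threshold. *Cmtm6*, whose product protects PD-L1 from degradation, was not called between these populations (83.04 ± 1.47 against 66.4 ± 7.96, adjusted p = 0.104), but was lower in CCL21-RANK- TECs (42.8 ± 4.92, n = 2) than in either, 1.79-fold below CCL21-RANK+ (adjusted p = 0.000228) and 1.55-fold below CCL21+RANK- TECs (0.00643). The list had 5 higher and 4 lower in CCL21-RANK+ against CCL21-RANK- TECs, beside 14.4% and 15.1% of all genes, and 5 and 0 between CCL21+RANK- TECs and CCL21-RANK- TECs, beside 4.35% and 3.66%. The median log2 fold changes were -0.63, -0.10 and 0.42, beside 0.11, 0.06 and 0.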

How the data were processed

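RNA-sequencing of 8 libraries was analysed. Per the labels, the authors used bcl2fastq 2.20, Trimmomatic, STAR 2.5.1 and RSEM 1.3.1 with mm10. The study's methods name CLC Genomics Workbench and a TruSeq Stranded Total RNA kit, whereas NEBNext Ultra II Directional is the kit in the labels. The deposited values were expected counts per gene, neither normalized nor filtered, of which 4.47% to 5.94% per library were not whole. Totals ranged from 42751858 to 71625319 per library. Floors of 3 counts for a count of 0 cover counting error only. The common biological coefficient of variation was 0.326. The chi-square between replicates was 77.3 to 275 per gene, above sampling noise, and no library was merged with another.

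Counts were rounded and fitted in edgeR 4.0.16 (R 4.3.3) with TMM, the default filter and Benjamini-Hochberg adjustment in 1 model of all 8 libraries. RPKM used library totals and merged exon lengths of GENCODE M21. The noncoding genes Gm26917 (6.89% to 19.4% of a library) and Gm42418 (1.47% to 10.7%) lower all RPKM. DESeq2 1.42.0 was an alternative, with other scalings, filters and thresholds, a replicate block and each library left out.

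The ligands and the gene lists were chosen with earlier results of these data known. From each list the 3 called genes with the highest mean RPKM in any population and the highest gene not called were named, with calls from CCL21-RANK+ against CCL21+RANK- TECs, and for each ligand the 3 genes most like it with a mean of at least 5 CPM in the highest population. Figures were drawn with matplotlib 3.10.9.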

Additional observations from a re-analysis of the deposited data

How the results depend on the processing

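Of 367 alternative log2 fold changes of single ligands, 347 kept their direction and their side of an adjusted p of 0.05, 16 were no longer past it, 2 were newly past it (*Vtcn1* against CCL21+RANK- TECs, without CCL21+RANK- replicate 1 or CCL21-RANK+ replicate 2) and 2 reversed. Both reversals were of *Cd80* between CCL21+RANK- TECs and CCL21-RANK- TECs, where leaving out a library gave -2.23 (without CCL21+RANK- replicate 2) to 0.86, and -0.55 without CCL21-RANK- replicate 2. Of those no longer past it, 9 were of *Cd274*, *Icosl* or *Tnfsf9* between the same populations, 6 of *Cd276* and 1 of *Pdcd1lg2* in CCL21-RANK+ against CCL21-RANK- TECs. DESeq2's size factors moved the median of all genes by 0.14 in the latter comparison and upper-quartile scaling by 0.12, and *Cd276* was then at -0.42 (adjusted p = 0.0686) with the former. With at least 10 counts required in every library, *Cd80*, *Cd86* and *Vtcn1* were not tested, and 5 ligands in place of 7 were called between CCL21-RANK+ TECs and CCL21+RANK- TECs and 4 in place of 6 between CCL21-RANK+ TECs and CCL21-RANK- TECs. *Vtcn1* also had no value without CCL21-RANK+ replicate 1 or, against CCL21+RANK- TECs, with only these populations in the fit, and *Tnfsf4* had one only without the filter. Where a ligand had a value, its direction between CCL21-RANK+ TECs and either other population was kept.

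With the adjusted p alone, 11516 genes were called between CCL21-RANK+ TECs and CCL21+RANK- TECs and 10501 between CCL21-RANK+ TECs and CCL21-RANK- TECs. Between CCL21+RANK- and CCL21-RANK- TECs, 1030 were called at a fold over 2, and 657 to 2066 genes and 1 to 3 ligands with 1 library left out. The gene counts were 657 and 772 without CCL21-RANK- replicate 2 and 1, and 1 ligand was left without either of these or CCL21+RANK- replicate 2. Without the counts of Gm26917 and Gm42418, the summed RPKM of the ligands was 138.5 in CCL21+RANK- TECs, 100.7 in CCL21-RANK+ TECs and 73.5 in CCL21-RANK- TECs, and 4 ligands in place of 3 were called between the first and the last, *Tnfsf9* being added.

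The deviations of CCL21+RANK- and CCL21-RANK+ libraries with the same number had correlations of 0.126, 0.0485 and 0.0707. Among these libraries each correlated best with its own number. Whether libraries with the same number share embryos is not given in the sources used here, and the main fit did not pair them. The same-number correlations with CCL21-RANK- libraries were -0.117 to -0.0411. With 2 such libraries the deviations mirror each other, so these values cannot decide on pairing. With the replicate block, the counts of ligands called were 7, 6 and 3, as without it, and of genes 6616, 6324 and 1913.

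With 2 CCL21-RANK- libraries, leaving out 1 leaves a lone sample that is assumed to vary like the other groups. Ligands at a few counts (*Vtcn1*, *Tnfsf4*, and *Cd86* outside CCL21-RANK+ TECs) are limited by depth. Without the expression filter, *Tnfsf4* had an adjusted p of 0.0225 against CCL21+RANK- and 0.0527 against CCL21-RANK- TECs.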
